A study of Homo sapiens with 2 samples.

Results

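The heat shock and chaperonin genes described here are 41 genes chosen by symbol from the textbook chaperone families, of 23321 genes in the deposited table. They comprise the HSP70, HSP110 and HSP90 proteins, J-domain proteins of the HSP40 family, small heat shock proteins, BAG proteins, HSP90 co-chaperones, the 8 subunits of the cytosolic chaperonin CCT, and heat shock factors HSF1 and HSF2. Although the set is centred on the cytosol, 5 of its genes, HSPA9, HSPD1, HSPE1, TRAP1 and DNAJA3, encode proteins known to work in mitochondria, and they are kept apart throughout.

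Chaperones hold, fold and disaggregate other proteins. HSP70 proteins bind exposed stretches of a client in cycles driven by ATP, J-domain proteins deliver clients and trigger ATP hydrolysis, and HSP110 and BAG proteins exchange the nucleotide so that the client is released. HSP90 matures kinases, receptors and other clients with the help of co-chaperones, CCT encloses actin, tubulin and other newly made proteins in a double ring, and HSF1 binds heat shock elements in many of these genes and raises their transcription when unfolded proteins accumulate.

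RNA was sequenced from AGS, an established cell line of human gastric adenocarcinoma, grown in medium with serum. The GGT7 library came from AGS cells stably transfected with a GGT7 plasmid, with the genotype given as GGT7 ectopic expression, and the control library from AGS cells stably transfected with a negative control plasmid, with the genotype given as WT. Both were labelled 2 weeks, and each group had 1 library, so no difference here has a replicate check, no test between groups was possible and no p-value is given. The promoter of the plasmid, and whether each line was 1 clone or a pool, were not stated in the sources used.

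The GGT7 library held 10289206 counts and the control library 13482913 counts. GGT7 itself had 470 counts (12.2 FPKM) in the GGT7 library and 90 counts (1.78 FPKM) in the control library, a ratio of 6.84 with a 95% interval of 5.45 to 8.67. All ratios here are GGT7 over control per summed count, and all intervals, computed by the exact Clopper-Pearson method from the 2 counts of a gene, cover counting error only and not variation between cultures. FPKM is a level per gene length and sequencing depth. The epithelial keratins KRT8, KRT18 and KRT7 had 6651, 7972 and 7074 counts in the GGT7 library and 13428, 9870 and 7638 counts in the control library, whereas EPCAM had 69 counts in the GGT7 library and 132 counts in the control library. The ratios went both ways, at 0.649 for KRT8, 0.685 for EPCAM, 1.06 for KRT18, 1.21 for KRT7, 1.09 for CLDN4 and 1.47 for CLDN7. CDH17 and TFF1 had 9 and 5 counts in the GGT7 library and 2 and 5 counts in the control library. The 8 epithelial markers summed to 2182.3 CPM (counts scaled to a common library total) in the GGT7 library and 2357 CPM in the control library, the 5 fibroblast markers to 45.8 CPM in the GGT7 library and 60.1 CPM in the control library, and the 3 endothelial markers to 22.2 CPM in the GGT7 library and 24.6 CPM in the control library. The 5 immune markers summed to 31.7 CPM in the GGT7 library and 7.64 CPM in the control library, of which CD68 made up 293 counts in the GGT7 library and 70 counts in the control library, whereas PTPRC, which defines leukocytes, had 5 counts in each library. The part of these markers in the results below was not tested, and in bulk RNA fewer cells of a type and less RNA per cell cannot be told apart.

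Among the 41 genes, most cytosolic chaperone genes were lower in the GGT7 library, whereas most of the mitochondrial ones were not. This did not extend to chaperone genes in general: of 71 others described below, 36 were lower in the GGT7 library and 35 higher. HSPA1B, the stress-inducible HSP70, and HSPA8, the constitutive HSP70 HSC70, stood furthest apart, at 3.02-fold and 2.63-fold lower. HSPA2, close to the limit of measurement, was 2.25-fold lower, HSPH1, the HSP110 exchange factor, 1.85-fold lower, and DNAJA1, a J-domain partner of HSPA8, 1.76-fold lower. Differences are given on the scale log2(FPKM + 1), GGT7 minus control, which understates the change of genes with low levels. A gene was counted as measured with at least 1 FPKM in the higher of the libraries. By this limit 40 of the 41 genes were measured, and only HSPA1A was not. HSPA2 met the limit through the control library alone.

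On that scale 4 of the 40 measured genes were 1.5-fold or more lower in the GGT7 library, beside 4.97% of 14215 measured genes, and 0 were 1.5-fold or more higher, beside 3.9%. A lower level in the GGT7 library of any size was seen for 32 of the 40, beside 54.8% of all measured genes, and without the limit for 33 of the 41. The median difference was −0.17 for the 40 genes and −0.03 for all measured genes. Among genes with at least 10 FPKM, 4 of 30 chaperone genes were 1.5-fold or more lower, beside 3.49% of 3556 genes, 24 of 30 were below 0, beside 51% of genes, and the median was −0.21 for the chaperone genes and −0.01 for all such genes. Of these 30, HSPH1, CHORDC1, HSPB8 and AHSA1 reached 10 FPKM through the control library alone, where they are higher, and 0 through the GGT7 library alone, so these counts are a description. The counting interval lay wholly below 1 for 28 of the 40 genes, above 1 for 4 and included 1 for 8. For the 71 other measured chaperone genes described below these numbers were 16, 14 and 41. The share over all measured genes was not computed. High counts place an interval off 1 even at small differences, such as HSPA4 at a ratio of 0.903 (0.860 to 0.948). Numbers of intervals off 1, here and in the families and lists below, are therefore a description.

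**Figure D1:**
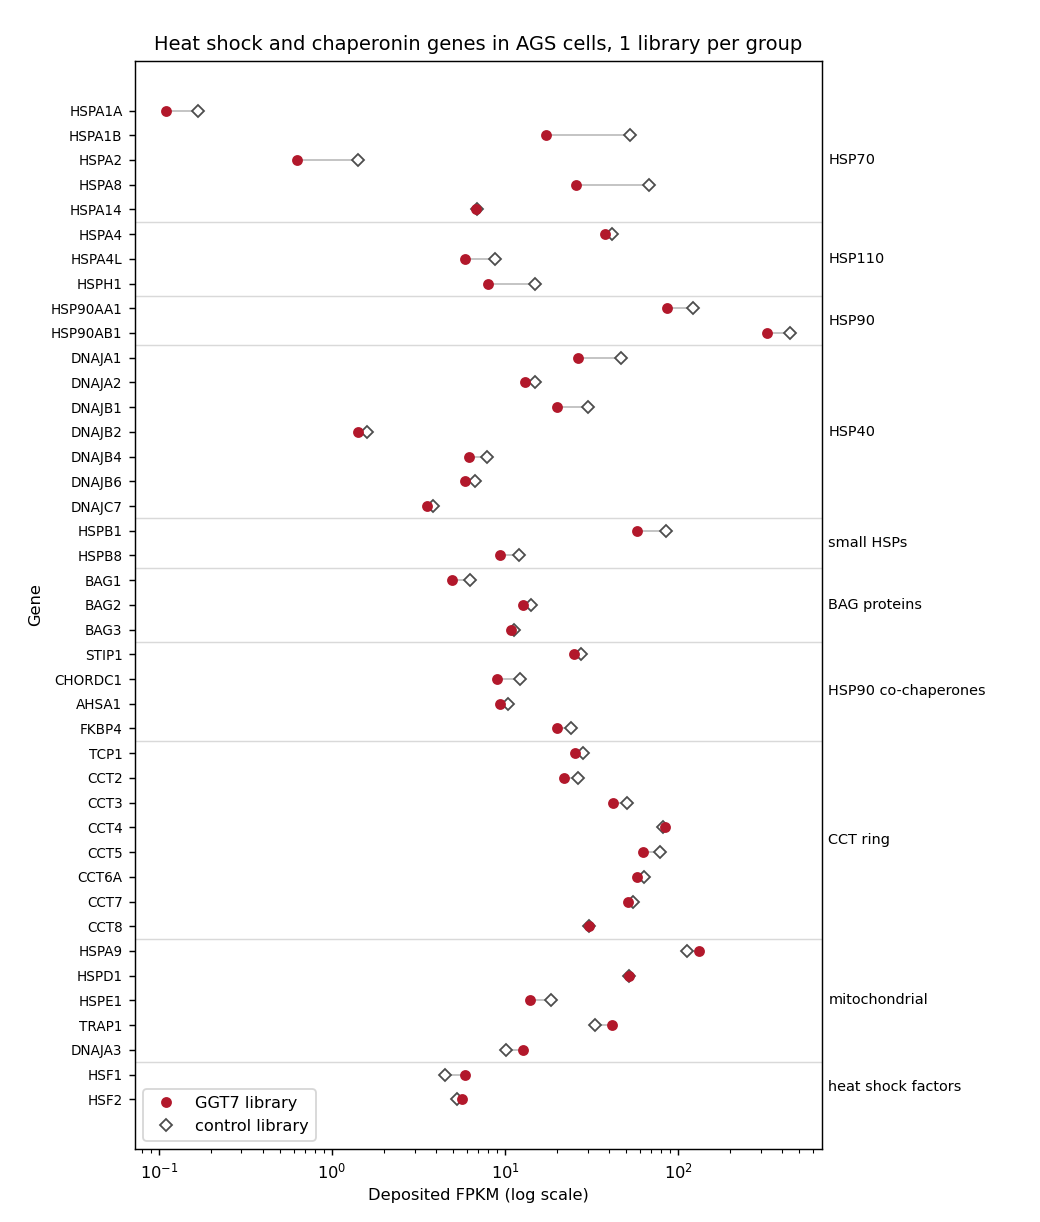
Deposited FPKM on a log axis for each of the 41 genes, grouped by family, with the GGT7 library as filled circles and the control library as open diamonds, 1 library per group. The circle lies left of the diamond for nearly all cytosolic genes, most widely for HSPA1B, HSPA8 and HSPA2, and right of it for HSPA9, TRAP1, DNAJA3 and HSF1. FPKM between genes is distorted by the length used, so positions are to be compared within a gene.

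The 41 genes together took 9010 CPM in the GGT7 library and 11151 CPM in the control library, a ratio of 0.808 (0.801 to 0.815). Much of the gap of −2141 CPM lay in a few abundant genes, since HSPA8 accounted for −595 CPM, HSP90AB1 for −465 CPM and HSP90AA1 for −327 CPM. The genes that were higher in the GGT7 library added 275 CPM, most of it from HSPA9 (146 CPM) and TRAP1 (67.5 CPM). Levels between genes were compared as CPM per kb of the principal annotated transcript. On this scale HSP90AB1 was the most abundant of the 41 in both libraries, at 479 CPM per kb in the GGT7 library and 653 CPM per kb in the control library. HSPA8 ranked 8 in the GGT7 library and 2 in the control library, and HSPA9 ranked 3 in the GGT7 library and 8 in the control library.

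**Figure D2:**
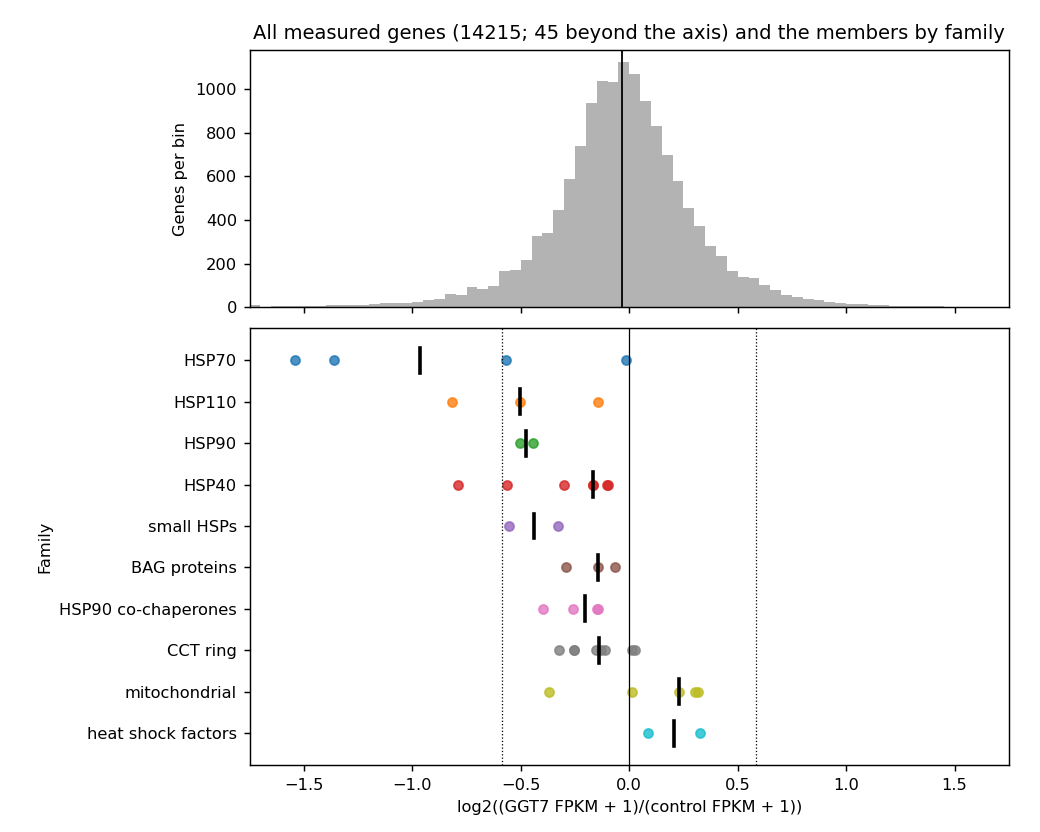
Upper panel, number of genes per bin of log2((GGT7 FPKM + 1)/(control FPKM + 1)) for all 14215 measured genes, with a vertical line at their median. Lower panel, the measured genes of each chaperone family as points on the same axis, with a bar at each family's median, a solid line at 0 and dotted lines at 1.5-fold. Every measured gene of 7 families lies left of 0, and 4 of the 5 mitochondrial genes lie right of 0.

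Heat shock elements, the sequences that HSF1 binds, are repeats of the unit GAA and its complement TTC spaced by 2 bases. The 250 bases before the RefSeq transcript start (GRCh38.p14) were searched for the pair GAANNTTC or TTCNNGAA, each of which reads the same on both strands, and for the 3-unit forms GAANNTTCNNGAA and TTCNNGAANNTTC, which are each other's reverse complement. Every 3-unit match also holds a pair. A promoter window was matched by symbol for 37 of the 41 genes. The 3-unit form occurred in 6 of these 37 (16.2%) against 0.557% of all 27305 genes with a window, and a pair occurred in 17 of 37 (45.9%) against 14% of all genes. Per window the shares were 11.5% against 0.441% for the 3-unit form and 32.7% against 11.6% for a pair. HSF1 is known to bind such elements in many of these genes. The higher shares could thus be foreseen from the choice of genes and are not a result about these libraries. A match describes the letters in the window and is not evidence of binding in these cells. The stretches below carry the 3-unit forms of all 6 genes, with the matched letters in capitals. Although they lie before the RefSeq start, those of HSPA8, HSP90AA1, CHORDC1 and HSPD1 fall wholly within annotated exons of the same gene. Those of HSP90AB1 and DNAJB6 lie outside such exons. HSPA8 held matches at 230 and 55 bases before the start, on the minus strand at chr11:123062346-123062375 and chr11:123062171-123062200. HSP90AA1 is at chr14:102087112-102087141 and CHORDC1 at chr11:90223084-90223113, both on the minus strand. HSP90AB1, at chr6:44247758-44247863, and DNAJB6, at chr7:157336853-157336905, are on the plus strand, and HSPD1, at chr2:197500061-197500090, is on the minus strand.
HSPA8, distal: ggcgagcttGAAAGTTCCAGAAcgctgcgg
HSPA8, proximal: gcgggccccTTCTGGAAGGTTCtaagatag
HSP90AA1: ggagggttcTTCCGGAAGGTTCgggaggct
HSP90AB1: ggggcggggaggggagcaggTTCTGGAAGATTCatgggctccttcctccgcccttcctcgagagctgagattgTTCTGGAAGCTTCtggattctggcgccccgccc
CHORDC1: accgGAAAATTCGCGAAGGTTCCTGAAacg
DNAJB6: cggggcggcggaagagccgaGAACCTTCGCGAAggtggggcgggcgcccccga
HSPD1: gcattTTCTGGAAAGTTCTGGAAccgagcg

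The stress-inducible pair HSPA1A and HSPA1B is shown because the genes are near copies, and DNAJB1, whose product is the stress-inducible J-domain partner of HSP70, because it held 2 separate pairs. Capitals mark the pair GAANNTTC. The HSPA1A stretch lies at chr6:31815426-31815455 and the HSPA1B stretch at chr6:31827622-31827651, both on the plus strand, and the 120 bases before the start were 91.7% identical between these genes. The DNAJB1 stretches lie on the minus strand at chr19:14518456-14518485 and chr19:14518426-14518455, with matches 77 and 47 bases before the start.
HSPA1A: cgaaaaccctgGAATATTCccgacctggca
HSPA1B: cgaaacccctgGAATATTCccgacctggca
DNAJB1, distal: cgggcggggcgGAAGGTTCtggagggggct
DNAJB1, proximal: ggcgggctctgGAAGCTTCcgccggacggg

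Among the measured genes, the 6 with a 3-unit element had a median difference of −0.42, with 5 of 6 below 0, and the 10 with a pair only had a median of −0.42, with 10 of 10 below 0. The 20 with neither form in the window had a median of −0.13, with 14 of 20 below 0. Of all measured genes 54.8% were below 0. The share below 0 among all genes with the same element was not computed, so the classes describe the chosen genes only. When the mitochondrial genes and the heat shock factors were left out, the medians were −0.45 for 5 genes with a 3-unit element, −0.42 for 10 with a pair only and −0.15 for 15 with neither. The classes overlapped over most of their range: DNAJB6, with a 3-unit element, differed by −0.17, whereas HSPH1, with neither form in its window, differed by −0.82. HSPD1, whose 3-unit match lies near the far end of its window, differed by 0.01. That match also lies within the annotated span of the neighbouring gene HSPE1. HSPE1 was classed as having neither form, because only bases before its own start were searched, and differed by −0.37.

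**Figure D3:**
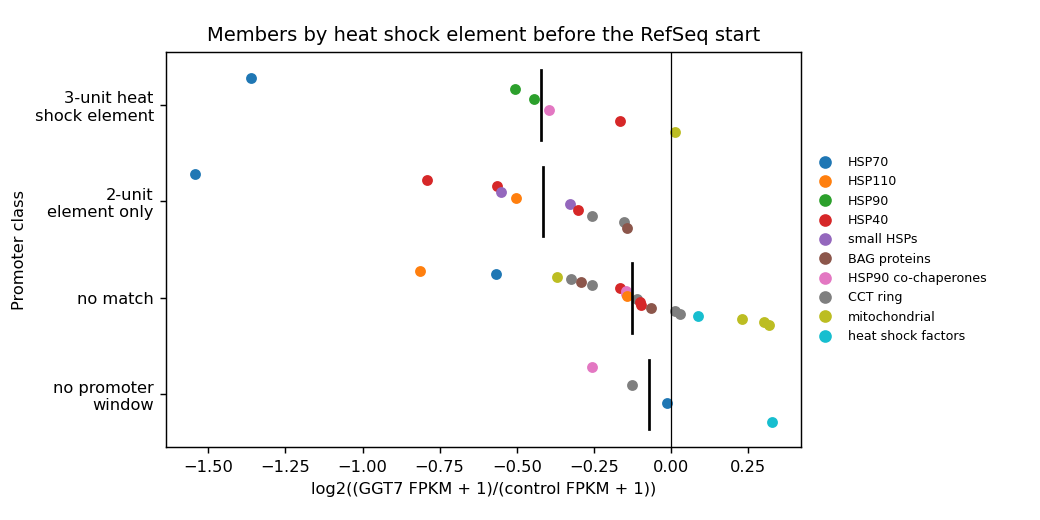
Difference between the libraries, log2((GGT7 FPKM + 1)/(control FPKM + 1)), for the 40 measured genes, placed by the heat shock element found in the 250 bases before the RefSeq start, with points coloured by family and a black bar at each class median. Genes with a 3-unit element or a pair have medians of −0.42, genes with neither form −0.13, and the classes overlap; the vertical spread of points within a class has no meaning.

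Of the 5 HSP70 genes, HSPA1B and HSPA8 were far lower in the GGT7 library. HSPA1B (ENSG00000204388, GRCh38 chr6:31827735-31830255) had 450 counts (17.3 FPKM) in the GGT7 library and 1782 counts (52.4 FPKM) in the control library, 3.02-fold lower with an interval of 2.72 to 3.36. Of all 14215 measured genes 0.295% had a lower difference. HSPA8 (ENSG00000109971, chr11:123057489-123063230, minus strand), with both 3-unit elements printed above, had 3758 counts (25.9 FPKM) in the GGT7 library and 12953 counts (68.0 FPKM) in the control library, 2.63-fold lower (2.54 to 2.73). Its counts make this the most precisely estimated of the large differences. HSPA2, a relative best known from the testis, had 56 counts (0.631 FPKM) in the GGT7 library and 165 counts (1.42 FPKM) in the control library, a ratio of 0.445 (0.322 to 0.606) at a low level. HSPA14, a ribosome-associated member, had 399 counts in the GGT7 library and 529 counts in the control library, a ratio of 0.988 (0.866 to 1.13), so its counts did not separate the libraries. The difference of HSPA14, −0.01 as deposited, took the other sign under 3 other scalings of the libraries.

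HSPA1A, 1 of the 2 main stress-inducible HSP70 genes, was listed at 5 counts (0.111 FPKM) in the GGT7 library and 10 counts (0.169 FPKM) in the control library, a ratio of 0.655 (0.176 to 2.10). Its annotated transcript was 98.6% identical to that of HSPA1B over 86.7% of its length, and how the authors' counting assigned reads that match both was not stated in the sources used. The HSPA1B count may therefore hold reads of HSPA1A, and the pair is best read as 1 value. The 5 HSP70 genes summed to 454 CPM in the GGT7 library and 1145 CPM in the control library, a ratio of 0.396 (0.383 to 0.409), the lowest of the 10 families. The 6 rows named as HSPA8 pseudogenes held 48 counts in the GGT7 library and 71 counts in the control library, equal to 1.28% of the HSPA8 count in the GGT7 library and 0.548% in the control library.

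The HSP110 genes, whose products are nucleotide exchange factors of HSP70 and parts of its disaggregation machinery, were unequally lower. HSPH1 (ENSG00000120694, chr13:31134974-31162388, minus strand) had 1233 counts (8.01 FPKM) in the GGT7 library and 2996 counts (14.8 FPKM) in the control library, 1.85-fold lower (1.73 to 1.98). HSPA4L had 782 counts in the GGT7 library and 1525 counts in the control library, 1.49-fold lower, and HSPA4 had 2773 counts in the GGT7 library and 4024 counts in the control library, 1.11-fold lower. HSPA4 was thus 2.42 times as abundant as HSPH1 in the GGT7 library and 1.44 times in the control library, both as CPM per kb.

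Both cytosolic HSP90 genes were lower in the GGT7 library, HSP90AB1 being the most abundant of the 41 genes in each library. HSP90AA1, the stress-inducible form (ENSG00000080824, chr14:102080738-102139699, minus strand), had 7942 counts (86.1 FPKM) in the GGT7 library and 14820 counts (123 FPKM) in the control library, 1.42-fold lower (1.39 to 1.46). HSP90AB1, the constitutive form (ENSG00000096384, chr6:44246166-44253888), had 13184 counts (327 FPKM) in the GGT7 library and 23540 counts (445 FPKM) in the control library, 1.36-fold lower (1.33 to 1.39). The ratio of HSP90AB1 to HSP90AA1 as CPM per kb was 2.10 in the GGT7 library and 2.01 in the control library. The processed pseudogene HSP90AA2P, 97.1% identical to HSP90AA1, was listed with 178 counts in the GGT7 library and 280 counts in the control library.

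All 7 HSP40 genes, which encode J-domain proteins, were lower in the GGT7 library, 5 of them with a counting interval wholly below 1. DNAJA1 (ENSG00000086061, chr9:33025211-33039907) had 829 counts (26.5 FPKM) in the GGT7 library and 1909 counts (46.5 FPKM) in the control library, 1.76-fold lower (1.62 to 1.91). DNAJB1 had 1586 counts (19.9 FPKM) in the GGT7 library and 3124 counts (29.98 FPKM) in the control library; its FPKM ratio of 0.665 is a 1.503-fold lower level, but with 1 FPKM added to both levels the difference was just under 1.5-fold. DNAJB4 had 408 counts in the GGT7 library and 679 counts in the control library, a ratio of 0.787, and DNAJA2, DNAJB2, DNAJB6 and DNAJC7 had ratios between 0.874 and 0.916. The largest differences of this family were those of DNAJA1 and DNAJB1, which work with HSPA8 and HSPA1B on unfolded clients.

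The small heat shock proteins, which hold unfolding clients without ATP, were also lower. HSPB1, also known as HSP27, had 1501 counts (58.0 FPKM) in the GGT7 library and 2900 counts (85.5 FPKM) in the control library, 1.47-fold lower (interval of the ratio 0.637 to 0.722). HSPB8, which works with BAG3 in clearing misfolded proteins by autophagy, had 304 counts in the GGT7 library and 511 counts in the control library, a ratio of 0.780 (0.674 to 0.900). BAG3 had 331 counts in the GGT7 library and 456 counts in the control library, a ratio of 0.951 (0.823 to 1.10), so its counts did not separate the libraries. BAG1 and BAG2, nucleotide exchange factors of HSP70, had ratios of 0.786 (0.717 to 0.863) and 0.898 (0.823 to 0.980).

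The 4 HSP90 co-chaperones were lower in the GGT7 library by smaller amounts, each with a counting interval below 1. CHORDC1, a stress-responsive partner of HSP90 with 3 overlapping 3-unit matches in the stretch printed above, had 1505 counts (9.02 FPKM) in the GGT7 library and 2667 counts (12.2 FPKM) in the control library, 1.35-fold lower (interval of the ratio 0.694 to 0.788). FKBP4, a prolyl isomerase of steroid receptor complexes, had 1318 counts in the GGT7 library and 2082 counts in the control library, a ratio of 0.830. STIP1, which bridges HSP70 and HSP90, and AHSA1, which speeds the HSP90 ATPase, had ratios of 0.901 and 0.894.

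**Figure D4:**
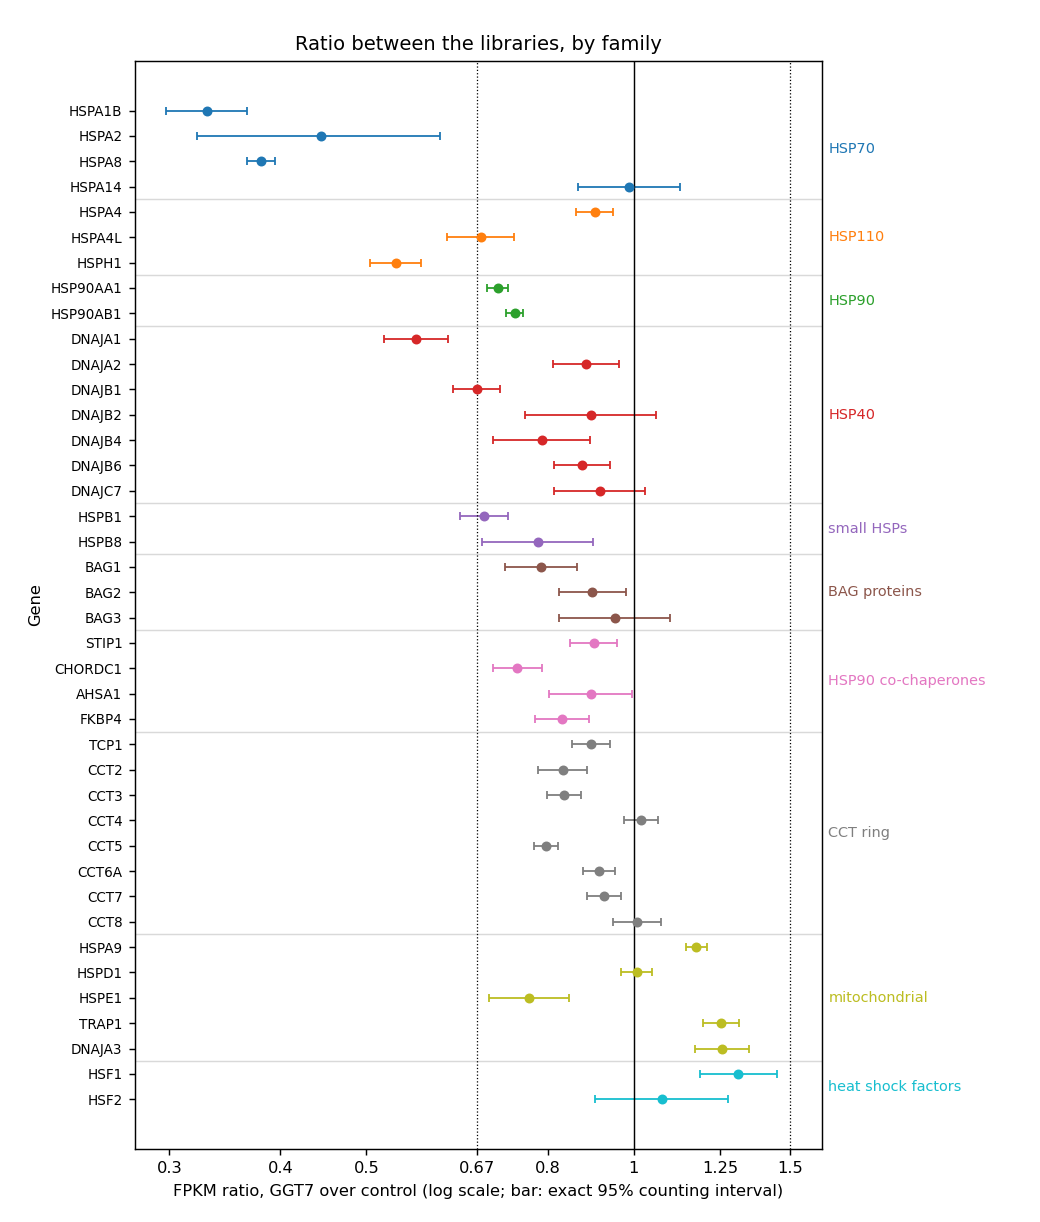
Ratio of GGT7 over control, on a log axis, for the 40 measured genes in order of family, with horizontal bars for the exact conditional 95% interval of the ratio of counts. The interval of HSPA8, 0.367 to 0.394, and that of HSPA1B, 0.298 to 0.367, lie far left of 1, and those of HSPA9, TRAP1, DNAJA3 and HSF1 lie right of it; bars show counting error only.

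The genes for the CCT ring were lower to a small extent and not evenly. Of the 8 subunits, 6 were lower with an interval below 1: CCT5 had the lowest ratio, 0.796 (0.772 to 0.821), from 6622 counts (62.8 FPKM) in the GGT7 library and 10897 counts (78.9 FPKM) in the control library. CCT2 and CCT3 had ratios of 0.832 and 0.834, and TCP1, CCT6A and CCT7 had ratios between 0.895 and 0.926. CCT4, at 1.02 (0.975 to 1.07), and CCT8, at 1.009 (0.948 to 1.07), had intervals that included 1. Each ring is known to be built from equal numbers of the 8 subunits, so its transcripts may be set side by side. As CPM per kb they ranged from 75.6 (CCT2) to 175 (CCT5) in the GGT7 library, a 2.32-fold range with a coefficient of variation of 27.9%, and from 86.8 (CCT8) to 220 (CCT5) in the control library, a 2.53-fold range with a coefficient of variation of 32.0%. On the deposited FPKM the coefficient of variation was 44.9% in the GGT7 library and 42.8% in the control library, so which library was more even depended on the length used. The 8 subunits summed to 2578 CPM in the GGT7 library and 2920 CPM in the control library, a ratio of 0.883 (0.869 to 0.897).

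**Figure D5:**
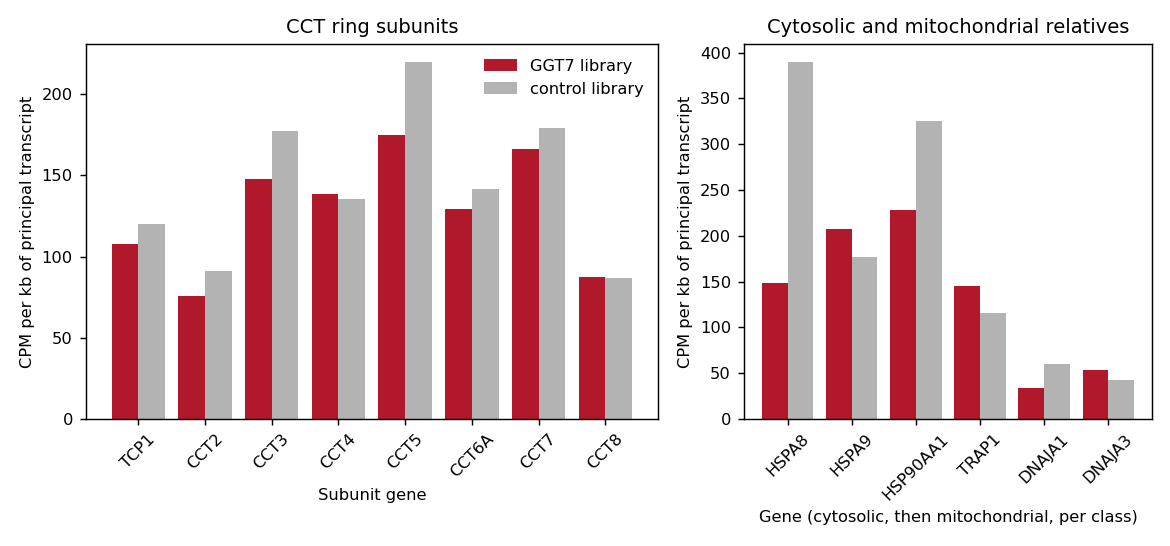
CPM per kb of principal transcript in the GGT7 library (red bars) and the control library (grey bars), 1 library each, for the 8 CCT subunits on the left and for pairs of cytosolic and mitochondrial relatives on the right. CCT5 is the highest subunit in both libraries, and HSPA8 is lower than HSPA9 in the GGT7 library and higher in the control library.

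The mitochondrial chaperone genes did not go with their cytosolic relatives. HSPA9, the mitochondrial HSP70 mortalin (ENSG00000113013, chr5:138553756-138575724, minus strand), had 10108 counts (132 FPKM) in the GGT7 library and 11274 counts (112 FPKM) in the control library, a ratio of 1.17 (1.14 to 1.21). TRAP1, the mitochondrial HSP90, had 3439 counts (41.7 FPKM) in the GGT7 library and 3596 counts (33.2 FPKM) in the control library, a ratio of 1.253 (1.20 to 1.31). DNAJA3, the J-domain partner of HSPA9, had 1523 counts in the GGT7 library and 1589 counts in the control library, a ratio of 1.26 (1.17 to 1.35). All 3 were higher in the GGT7 library by less than 1.5-fold. As CPM per kb, HSPA8 stood at 0.714 times the level of HSPA9 in the GGT7 library and 2.21 times in the control library, and HSP90AA1 at 1.57 times the level of TRAP1 in the GGT7 library and 2.80 times in the control library.

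HSPD1 and HSPE1, the HSP60 chaperonin and its HSP10 lid, differed from each other. HSPD1 had 4293 counts (52.1 FPKM) in the GGT7 library and 5583 counts (51.7 FPKM) in the control library, a ratio of 1.008 (0.968 to 1.05). HSPE1 had 591 counts (14.01 FPKM) in the GGT7 library and 1016 counts (18.4 FPKM) in the control library, a ratio of 0.762 (0.688 to 0.844). The genes lie head to head on chromosome 2 on opposite strands and share 281 exonic bases, and without a stated strand setting reads there cannot be told apart. HSPE1 is also uncertain because 9 rows named as its pseudogenes held 58 counts in the GGT7 library and 99 counts in the control library, 9.81% of the HSPE1 count in the GGT7 library and 9.74% in the control library. The 5 mitochondrial genes summed to 1939 CPM in the GGT7 library and 1710 CPM in the control library, a ratio of 1.13 (1.11 to 1.16), whereas the 34 cytosolic chaperone and co-chaperone genes summed to 6970 CPM in the GGT7 library and 9360 CPM in the control library, a ratio of 0.745 (0.738 to 0.752).

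The transcripts of the heat shock factors were not lower. HSF1, the main activator of the heat shock response, had 794 counts in each library, which at the unequal totals is 5.89 FPKM in the GGT7 library and 4.49 FPKM in the control library, a ratio of 1.31 (1.19 to 1.45). HSF2 had 246 counts (5.64 FPKM) in the GGT7 library and 300 counts (5.25 FPKM) in the control library, a ratio of 1.07 (0.904 to 1.28). These are RNA levels, and HSF1 is known to be regulated largely through its protein, which was not measured.

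Of the 41 genes, 7 have a near-identical copy in an annotated gene elsewhere (95% identity over at least 30% of the transcript) and 16 share at least 100 exonic bases with an overlapping gene, 19 in all with either. Of the 4 genes that were 1.5-fold or more lower, HSPA8, HSPH1 and DNAJA1 have neither, and HSPA1B has both.

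Another 83 chaperone genes of the same pathways were examined in 8 lists. Of these 71 were measured, 36 of the 71 were below 0, 1 was 1.5-fold or more lower, 0 were 1.5-fold or more higher, and their median difference was −0.00. The 1 was DNAJC21, a J-domain protein of ribosome assembly, with 1162 counts in the GGT7 library and 2380 counts in the control library, a ratio of 0.640 (0.596 to 0.687). The count of 1 became 0 with a pseudocount of 5, with the trend with GC content and length removed and under DESeq2, upper quartile and median ratio scaling, and 3 with a pseudocount of 0.1 or none, so this call depends on the setting. The 12 measured J-domain genes of its list, DNAJC21 among them, had a median of −0.03, with DNAJC9 the highest at a ratio of 1.32. The prefoldin and chaperonin cofactor list had a median of 0.10 with 2 of 10 below 0, from PDCL3 at a ratio of 0.628 (0.476 to 0.823) to PFDN2 at 1.35 (1.15 to 1.58). PDCL3, with 81 counts in the GGT7 library and 169 counts in the control library, was not called because of its low level, at a difference of −0.55 on the log2(FPKM + 1) scale.

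The remaining lists are given by their median and by the genes with the lowest and highest difference on the log2(FPKM + 1) scale. The other HSP70 genes and cofactors had a median of 0.07, from HSPA1L at −0.17 to the ubiquitin ligase STUB1 at 0.28, and the other HSP90 co-chaperones a median of −0.05, from PPID at −0.28 to CDC37L1 at 0.42. The other mitochondrial chaperones and proteases had a median of 0.03, from CLPB at −0.19 to GRPEL2, a nucleotide exchange factor of HSPA9, at 0.54. The other heat shock factors and binding proteins had a median of −0.05, from HSBP1 at −0.07 to HSBP1L1 at −0.04. Among 7 other genes known as HSF1 targets, 4 were below 0 and the median was −0.11, from CACYBP at −0.36 to the collagen chaperone SERPINH1 at 0.48. The counting interval of the ratio lay below 1 for 4 of the 7 and above 1 for 3. In the list of other small heat shock genes only HSPB11, listed by its symbol, was measured, with a difference of 0.20 and a ratio of 1.17. HSPA6, an HSP70 gene known for strict stress induction in human cells, was below the limit of measurement with 2 counts in the GGT7 library and 17 counts in the control library. It was named after its values were seen, and the other genes of these lists below the limit are not given singly.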

How the data were processed

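RNA of 2 libraries, 1 per group, was sequenced. Per the submitters' processing notes, HISAT2, StringTie 1.3.0 and edgeR were used with GRCh38; neither annotation nor counting tool nor strand setting is given in the sources used here. In the deposited files, the authors give expected counts (whole numbers in all rows used) and FPKM per gene; per the file headers there is 1 column of each per library. Of 23378 lines, 23376 were intact; the 2 lines left out were broken. Rows of 1 symbol were summed. The deposited FPKM equals the count per library total over a gene length that adds up all distinct annotated exons, overlapping ones repeatedly: this held within 1% for 86.4% of genes with 50 counts or more and for 37 of the 41 genes described. Ratios within a gene do not depend on it, but log2(FPKM + 1) differences, the limit of 1 FPKM and levels between genes do. For levels between genes, CPM per kb of the GENCODE 29 principal transcript was therefore used.

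Computed here were log2(FPKM + 1) differences, counted at 1.5-fold where the higher library reached 1 FPKM, and exact conditional 95% intervals of count ratios (Python 3.11.15, scipy 1.17.1). The script was tested on simulated data. Near-identical copies (95% identity, covering 30% of the gene's transcript, genes overlapping it at its own locus left out) were found with BLAST 2.17.0. Other scalings used edgeR 4.0.16 and DESeq2 1.42.0 only for library factors. Other pseudocounts, filters, fold limits and lengths were tried. The genes and lists were chosen with earlier results of these data known. All 41 genes are given singly or in a family range; of each list of other chaperones the lowest and highest measured gene is named, and HSPA6 was added after its values were seen. Promoter sequences are from RefSeq.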

Additional observations from a re-analysis of the deposited data

How the results depend on the processing

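With 1 library per group the depth limits only counting error, and culture, clone and library preparation cannot be told apart from the plasmid. No paired analysis was possible because each group holds 1 library. No family median changed sign under the 13 settings that give one (12 for HSP90, both of whose genes have a copy), and 40 of the 41 genes kept their sign under 9 settings each; HSPA14 changed sign under DESeq2, upper quartile and median ratio scaling, where 31 instead of 32 genes were below 0. The count of genes 1.5-fold or more lower was 4 as given, and 2 at 2-fold (HSPA1B and HSPA8). With the limit at 0.8 on the log2(FPKM + 1) scale it was 14, and 1 gene was higher by the inverse limit. By the ratios of counts given above, DNAJB4 and BAG1 also lay below 0.8, and TRAP1 and DNAJA3 above its inverse. At 1.5-fold the count was 6 with a pseudocount of 0.1, and also 6 with none, DNAJB1 and HSPA2 being added. It was 5 with lengths from the union of exons, HSPA2 being added. These lengths were chosen after seeing the data. Of the 24 genes without an overlapping gene, a set chosen after seeing the data like the ratio without pseudocount, 20 were below 0. Shares of all measured genes were not computed under these other settings, and a looser limit raises the count for any set of genes. The counts under other settings are therefore a description. The HSP70 median, −0.97 over 4 genes, was −1.22 with a pseudocount of 0.1 and −1.28 without one, over the same 4 genes. Because the genes counted differ, it was −0.57 without a filter, also −0.57 over genes with no near-identical copy, and −1.36 with a limit of 5 FPKM. The HSP110 median was −0.34 with a pseudocount of 5, which pulls differences towards 0. The HSP90 median was −0.436 with upper quartile and −0.438 with median ratio scaling, and the mitochondrial median 0.27 with upper quartile scaling. Each scaling multiplies all GGT7 levels by 1 factor, so these medians moved together with all other genes. The mitochondrial median was 0.30 over the genes with no near-identical copy, which leaves out HSPD1 and HSPE1.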
